A study of Mus musculus with 192 samples.

Results

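Cldn13, Mrap and Tmem56 are 3 protein-coding genes whose transcripts were detected in most colony-forming units-erythroid (CFU-E) and in few burst-forming units-erythroid (BFU-E) of the mouse fetal liver. They were picked by symbol from the genes with the largest difference between these cell types, and each matched 1 of the 49466 genes in the deposited table. Their levels, shares of cells and folds between the cell types are therefore a description with no test. Onset here means at least 1 count in a cell after every cell was thinned to 100000 counts, so that a single count equals 10 counts per 1000000 (CPM).

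Red cell progenitors pass from the BFU-E, the earliest progenitor committed to the lineage, to the CFU-E, which depends on erythropoietin and gives rise to erythroblasts that make hemoglobin. Claudins are membrane proteins with several spans that seal tight junctions between epithelial cells, and Cldn13 is a claudin of rodents with no human counterpart. Mrap encodes a small membrane protein that brings Mc2r, the receptor for adrenocorticotropic hormone, to the surface of adrenal cells. Tmem56, now named Tlcd4, encodes a membrane protein with a TLC domain, the domain shared by the ceramide synthases and the TRAM proteins.

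The cells were single CFU-E and single BFU-E from livers of C57/Bl6J embryos at day 14.5, with no genetic change or treatment named in the labels. Magnetic beads first removed cells bearing lymphoid antigens (CD3e and CD45R), myeloid antigens (Ly-6G, CD11b and CD16/32), or CD41, Sca-1 or the late erythroid antigen Ter119. What remained was stained for CD117, CD71 and CD24 and sorted 1 cell to a well; neither the gates nor how many embryos were used is given in the sources used here. Each cell type filled 1 plate and 1 sequencing lane, which means that effects of plate, lane and cell type cannot be told apart and that each cell type counts as 1 sample. Cells of 1 plate are not replicates, so no difference below has a replicate check or a p-value. All intervals are exact, at 95%, and cover counting error alone, and because the reads were amplified by PCR without molecular identifiers, they do not stand for independent molecules.

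Totals per well ran from 5825 to 2992101 counts over 95 CFU-E wells and from 6473 to 3864040 over 96 BFU-E wells. After wells with under 100000 counts or 2000 genes were left out, 89 CFU-E and 92 BFU-E cells remained. The labels were checked against marker lists for other blood cells. On the CFU-E plate, 3 wells held 9 of 13 lymphoid markers each, with summed lymphoid levels of 2080 to 4170 CPM, against 0 to 90 CPM in the other 86 cells. Their erythroid markers summed to 140 to 800 CPM, against 4810 to 21850 CPM in the other 86 cells. On the BFU-E plate, clustering without the 3 genes and the globins separated 39 cells led by Flt3, Csf1r and Cd33, called granulocyte-monocyte-like here, from 53 erythroid-like cells. Granulocyte-monocyte markers summed to 110 to 18110 CPM in the 39 cells and 0 to 830 CPM in the 53 cells. The depletion used Ly-6G, CD11b and CD16/32, and why these 39 cells remained was not tested. Levels, onset shares and ratios of the 3 genes are given over the whole plates and also for the 86 CFU-E cells against the 53 erythroid-like BFU-E cells; the cells behind other values are named beside them.

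Cldn13 (ENSMUSG00000008843) lies on the minus strand of GRCm38 at chr5:134914249-134915526. Its level in CFU-E cells was 0 CPM in the lowest cell, 160 CPM at the median and 770 CPM in the highest cell, against 0 CPM in the lowest BFU-E cell, 0 CPM at the median and 80 CPM in the highest. The cells without a count on the CFU-E plate were the 3 with lymphoid markers, and the other 86 ranged from 20 to 770 CPM, so a few CFU-E cells overlapped the highest BFU-E cells. Onset was seen in 86 of 89 CFU-E cells, or 96.6% (90.5 to 99.3), against 6 of 92 BFU-E cells, or 6.52% (2.43 to 13.7). Without thinning the shares were 96.6% and 7.61%. All 6 BFU-E cells were erythroid-like, which makes 11.3% of 53. Of the 39 granulocyte-monocyte-like cells 0 had a count, which allows a share of up to 9.03%.

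Over all cells, Cldn13 stood at 190.4 CPM (181 to 199.7) in CFU-E and 2.61 CPM (1.67 to 3.88) in BFU-E cells. The ratio was 73.01 (48.9 to 114), or 5.73 on the log2(CPM + 1) scale. Among the 86 CFU-E and the 53 erythroid-like BFU-E cells it was 197 and 4.53 CPM, a ratio of 43.5 (29.2 to 68.1). The first ratio counts the 39 granulocyte-monocyte-like cells, which hold no Cldn13 count, among the BFU-E cells.

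Mrap (ENSMUSG00000039956) lies on the plus strand of GRCm38 at chr16:90738207-90749785. In CFU-E cells its level ran from 0 CPM in the lowest cell through 50 CPM at the median to 280 CPM in the highest, against 0 CPM in the lowest, 0 CPM at the median and 40 CPM in the highest BFU-E cell. The cell types overlapped, since 27 of the 89 CFU-E cells also had no thinned count. Onset was seen in 62 of 89 CFU-E cells, or 69.7% (59.01 to 78.97), against 3 of 92 BFU-E cells, or 3.26% (0.678 to 9.23). Without thinning, 72 CFU-E cells (80.9%) and 4 BFU-E cells (4.35%) had a count, so part of the CFU-E cells without onset held few Mrap reads rather than no read.

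The level of Mrap over all cells was 66.7 CPM (61.5 to 72.3) in CFU-E and 0.761 CPM (0.306 to 1.57) in BFU-E cells. The BFU-E value rests on 7 counts, and the ratio was 87.7 (42.3 to 219), or 5.27 on the log2(CPM + 1) scale. Among the 86 CFU-E and 53 erythroid-like BFU-E cells, Mrap was at 69.1 and 1.32 CPM, a ratio of 52.3 (25.2 to 131), with onset in 72.1% and 5.66% of the cells. All 39 granulocyte-monocyte-like cells and all 3 lymphoid-marker wells lacked a thinned count.

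Tmem56 (ENSMUSG00000028132) lies on the minus strand of GRCm38 at chr3:121201761-121283098 and spans 2 processed pseudogenes. One of them, Gm9353, was counted apart at 2.47 CPM in CFU-E and 0.543 CPM in BFU-E cells, and Gm30517 had no count. RefSeq's promoter table for GRCm38.p6 lists 2 overlapping starts for this gene under the name Tlcd4, both inside the span above. The promoter of the start farther upstream, from 250 bases before the start to its first 50 bases, at chr3:121263291-121263590 on the minus strand, is shown because erythroid promoters often carry GATA, CACCC and E-box motifs. Capitals mark CACCC (here on the other strand, as GGGTG) and the E-box CANNTG.

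Tmem56 promoter: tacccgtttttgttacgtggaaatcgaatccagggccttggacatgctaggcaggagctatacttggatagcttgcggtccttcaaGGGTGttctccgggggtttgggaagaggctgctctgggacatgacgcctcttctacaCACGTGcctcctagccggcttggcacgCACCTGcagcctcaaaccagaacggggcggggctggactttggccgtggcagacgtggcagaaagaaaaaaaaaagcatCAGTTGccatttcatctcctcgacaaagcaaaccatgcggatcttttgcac

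This window held 1 CACCC and 3 E-box matches over both strands, and no match to the GATA motifs AGATAA and AGATAG, or to TGATAA and TGATAG. The second, overlapping window held 1 CACCC and 1 E-box match and likewise no GATA match. Of 32841 RefSeq promoter windows of this length, 57.5% held CACCC, 72.3% an E-box and 29.8% a GATA motif. Counts were per gene, so the start in use was not resolved.

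The Tmem56 level was 0 CPM in the lowest CFU-E cell, 80 CPM at the median and 320 CPM in the highest, against 0 CPM in the lowest, 0 CPM at the median and 30 CPM in the highest BFU-E cell. Onset was seen in 84 of 89 CFU-E cells, or 94.4% (87.4 to 98.2), against 5 of 92 BFU-E cells, or 5.43% (1.79 to 12.2). Without thinning, 87 CFU-E cells (97.8%) and 10 BFU-E cells (10.9%) had a count. The 3 erythroid CFU-E cells without onset held 14, 1 and 1 unthinned counts, so each of the 86 cells without lymphoid markers had a Tmem56 read. In granulocyte-monocyte-like cells, 0 of 39 had a thinned and 1 an unthinned count. Over all cells, Tmem56 stood at 90.1 CPM (83.98 to 96.6) in CFU-E and 0.870 CPM (0.375 to 1.71) in BFU-E cells. The ratio of 104 (52.3 to 241), or 5.61 on the log2(CPM + 1) scale, rests on 8 BFU-E counts. Among the 86 CFU-E and 53 erythroid-like BFU-E cells it was at 93.1 and 1.51 CPM, a ratio of 61.7 (31.2 to 143).

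**Figure D1:**
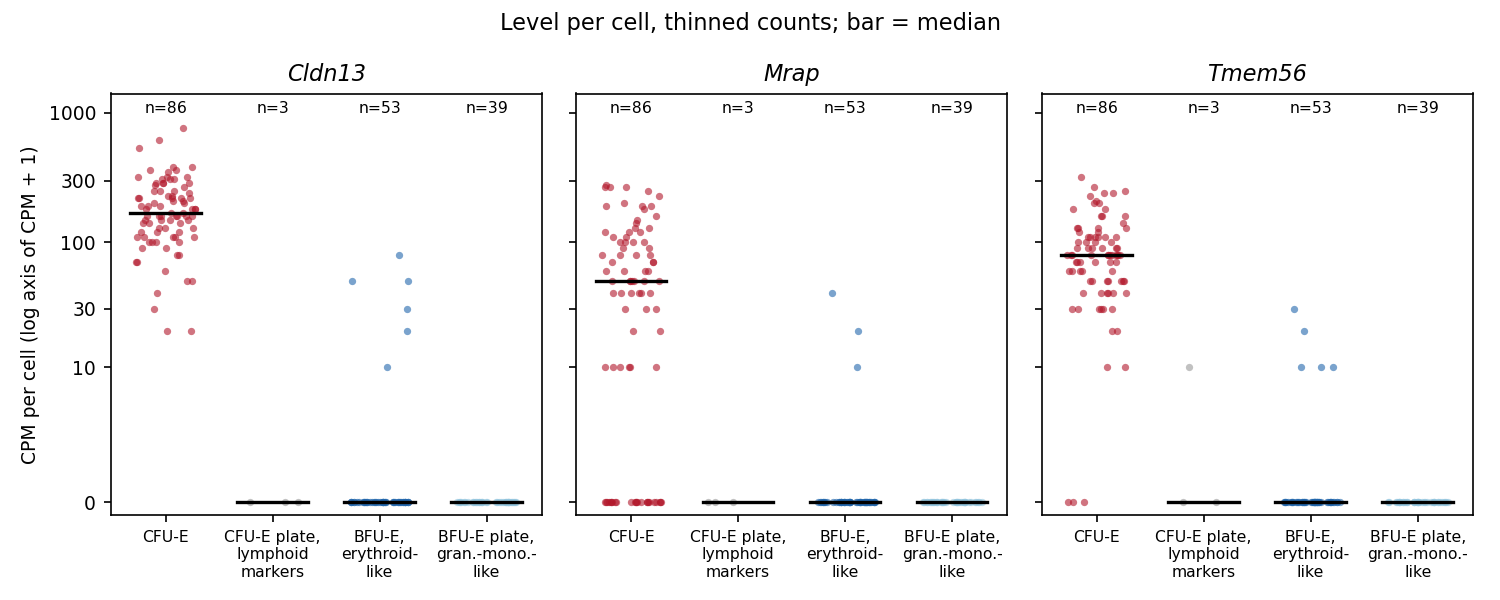
Level of Cldn13, Mrap and Tmem56 in each cell (vertical axis, CPM on a log axis of CPM + 1; each point 1 cell thinned to 100000 counts, bar the median) in CFU-E cells, CFU-E wells with lymphoid markers, erythroid-like BFU-E cells and granulocyte-monocyte-like BFU-E cells. All 86 CFU-E cells lie at or above 20 CPM of Cldn13, while Mrap is at 0 CPM in 24 of them and Tmem56 in 3; the 39 granulocyte-monocyte-like cells are at 0 CPM for each gene.

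All 3 genes thus differed by more than 2-fold between the cell types. Of 9445 genes with a mean of at least 5 CPM over the 2 cell types, 6.28% (593) were higher in CFU-E cells by 2-fold or more and 34% (3214) lower. With factors from the trimmed mean of M values (TMM) the counts were 1433 higher and 1764 lower of 9325, and with median-of-ratios factors 1547 higher and 1673 lower of 9323. Between the 86 CFU-E and the 53 erythroid-like BFU-E cells the share of higher genes was 6.07% of 9109 and that of lower genes 32.2%. Since the 3 genes were chosen on this contrast, nothing is read from their count. By log2 fold they stood at ranks 5 (Cldn13), 6 (Tmem56) and 10 (Mrap) of the 9445. The median log2 fold of these genes was −0.57, and it moved to 0.01 with TMM and to 0.06 with median-of-ratios factors. The same scalings gave log2 folds of 6.22 and 6.26 for Cldn13, 5.66 and 5.70 for Mrap and 6.02 and 6.06 for Tmem56.

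Levels of different genes can be set side by side only per length of transcript. Per kilobase of exon, Cldn13 stood at 178 CPM in CFU-E and 2.44 CPM in BFU-E cells. Mrap stood at 42.2 and 0.481 CPM per kilobase in CFU-E and BFU-E cells. Tmem56, whose annotated exons add up to 7874 bases, stood at 11.4 and 0.110 CPM per kilobase in CFU-E and BFU-E cells. Among the 86 CFU-E and 53 erythroid-like BFU-E cells the values per kilobase were 184.7 and 4.24 CPM for Cldn13, 43.7 and 0.835 CPM for Mrap and 11.8 and 0.192 CPM for Tmem56. The order was the same in both cell types, with Cldn13 highest and Tmem56 lowest; exons that these cells do not use would lower a value per kilobase, and that was not tested.

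Mrap was seen in fewer CFU-E cells than most genes of its level. Among 955 genes whose CPM differed from its own by a ratio of at most 5 to 4, the median gene had onset in 86.5% of CFU-E cells, against 69.7% for Mrap, and 56 of the 955 had a lower share than Mrap. Its coefficient of variation over cells was 1.14, against a median of 0.948 for those genes. Tmem56, with onset in 94.4% of cells, was near the median of 92.1% over 853 genes of like level. Cldn13, with 96.6%, was below a median of 98.9% over 486 genes, since the 3 lymphoid-marker wells lacked it.

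Within single CFU-E cells, Cldn13 and Tmem56 were mostly seen together, and no cell had a thinned Mrap count without one of Cldn13. Of 89 CFU-E cells, 61 (68.5%) had all 3 transcripts, 22 had Cldn13 and Tmem56 without Mrap, and 1 had Cldn13 and Mrap without Tmem56. Cldn13 alone was seen in 2 cells, Tmem56 alone in 1 lymphoid-marker well and none of the 3 in the other 2 such wells. With every erythroid CFU-E cell carrying Cldn13, the nesting of Mrap within it follows from the Cldn13 share. In BFU-E cells no cell had all 3: 2 had Cldn13 and Tmem56, 4 Cldn13 alone, 3 Mrap alone, 3 Tmem56 alone, and 80 none. All 12 BFU-E cells with any of the transcripts were erythroid-like, 22.6% of those 53 cells.

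**Figure D2:**
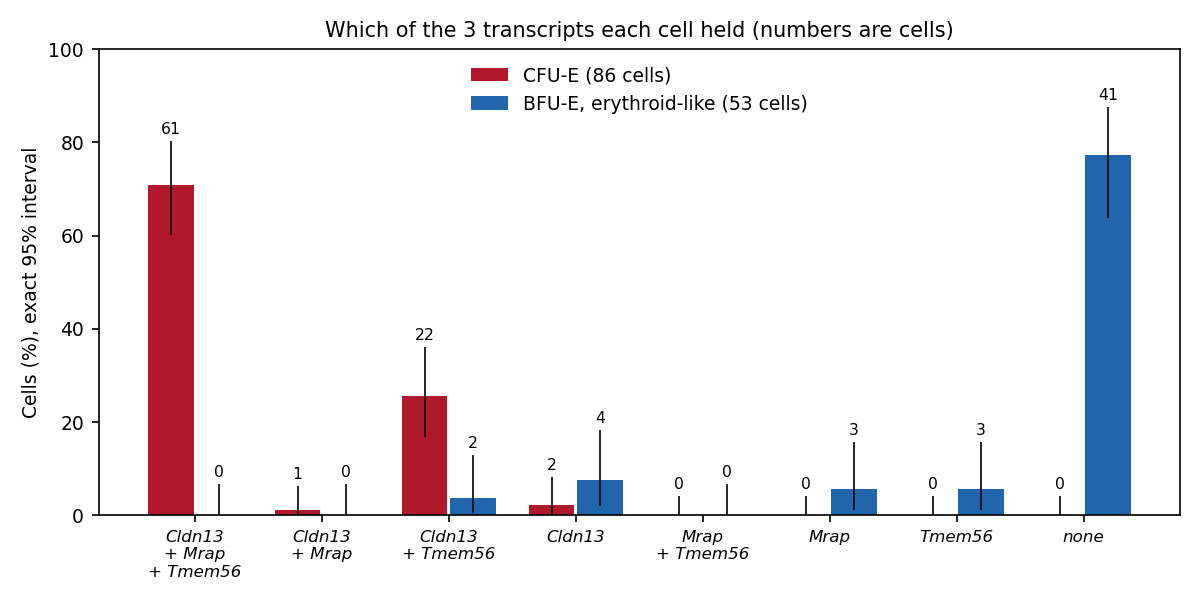
Share of cells (vertical axis, %, with exact 95% intervals of counting error) that held each combination of the 3 transcripts, in 86 CFU-E cells and 53 erythroid-like BFU-E cells; the numbers above bars are cells. The combination of all 3 was found in 61 CFU-E cells and no BFU-E cell, and 41 of the 53 BFU-E cells held none.

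The amounts of the 3 transcripts were nearly unrelated to each other from cell to cell. Over the 86 CFU-E cells without lymphoid markers, which share a plate and a depth of 100000 counts, Spearman's rho was −0.00 between Cldn13 and Mrap, 0.07 between Cldn13 and Tmem56 and 0.07 between Mrap and Tmem56. With the 3 lymphoid-marker wells included, the values over 89 cells were 0.06, 0.15 and 0.14. Weak values like these are a description of sparse counts only.

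Globin transcripts accompanied the 3 genes in nearly all CFU-E cells. Hba-a1, an alpha chain of hemoglobin, had a count in 86 of 89 CFU-E cells, against 11 of 92 BFU-E cells. In CFU-E cells with onset, Hba-a1 was present in 85 of 86 with Cldn13 (98.8%), 61 of 62 with Mrap (98.4%) and 82 of 84 with Tmem56 (97.6%). In CFU-E cells without onset it was present in 1 of 3 lacking Cldn13, 25 of 27 lacking Mrap and 4 of 5 lacking Tmem56. The 3 cells that lack Cldn13 are the lymphoid-marker wells, which also make up part of the other groups without onset. Without thinning, Hba-a1 had a count in all 89 CFU-E cells, these 3 wells included.

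The adult beta chains Hbb-bt and Hbb-bs were found in fewer cells than Hba-a1, in 58 and 59 of 89 CFU-E cells, against 11 and 1 of 92 BFU-E cells. Hbb-bt or Hbb-bs was present in 73 of 86 CFU-E cells with Cldn13 (84.9%), 51 of 62 with Mrap (82.3%) and 71 of 84 with Tmem56 (84.5%). Cells lacking Mrap carried these beta chains about as often, in 23 of 27 (85.2%, interval 66.3 to 95.8). Granulocyte-monocyte-like cells, which should lack globins, had a count of Hba-a1 in 3 of 39 (7.69%) and of Hbb-bt in 6 of 39 (15.4%), with all cells thinned to the same depth. The shares in erythroid-like BFU-E cells were 15.1% for Hba-a1 and 9.43% for Hbb-bt, within the intervals of the granulocyte-monocyte-like cells. Without thinning, Hba-a1 had a count in 33.96% (21.5 to 48.3) of erythroid-like and 17.9% (7.54 to 33.5) of granulocyte-monocyte-like BFU-E cells, and Hbb-bt in 16.98% and 25.6% of them. The 24 thinned Hbb-bs counts of the BFU-E plate all came from 1 erythroid-like cell, which had 114288 counts in all and a summed globin level of 360 CPM, with 110 CPM of Hba-a1. How much of the BFU-E globin counts came from free RNA was not tested. How reads shared by near-identical globin copies were treated is not given in the sources used here, so the split within each pair is uncertain.

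Among the 86 erythroid CFU-E cells, those with and without thinned beta-chain counts can be set side by side. Cldn13 was at 208 CPM (197 to 218) in the 73 with Hbb-bt or Hbb-bs and 138 CPM (118 to 159) in the 13 without, with medians of 180 and 150 CPM, and every cell of both sets had onset. Mrap was at 73.3 CPM (67.2 to 79.8) in the 73 cells and 45.4 CPM (34.5 to 58.5) in the 13, with a median of 50 CPM in both sets, while its onset share was 69.9% in the 73 and 84.6% in the 13. Tmem56 was at 92.6 CPM (85.8 to 99.9) in the 73 cells and 96.2 CPM (80.04 to 115) in the 13. The intervals, which leave out differences between cells, overlap for Tmem56 and do not for Cldn13 and Mrap. The onset of the 3 genes was thus seen also in cells with no thinned beta-chain count. Without thinning, Hbb-bt and Hbb-bs each had a count in 79 of the 86 cells, against 57 and 59 with thinning. A missing thinned count therefore does not show that a cell lacked beta-chain transcripts.

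Across the 86 cells Cldn13 varied with Hba-a1, the summed globins and a late erythroid sum more than Mrap and Tmem56 did. Spearman's rho between Cldn13 and Hba-a1 was 0.31, and between Cldn13 and the summed globins 0.32. Mrap and Tmem56 gave 0.17 and −0.12 with the summed globins. For the beta chains Cldn13 and Mrap were alike. With Hbb-bt and Hbb-bs, rho was 0.18 and 0.21 for Cldn13, 0.16 and 0.24 for Mrap and −0.09 and −0.03 for Tmem56. With the sum of 21 late erythroid genes, rho was 0.44 for Cldn13, 0.11 for Mrap and −0.12 for Tmem56. Car2 weighed most in that sum, at 6470 CPM in the 86 cells, and alone gave 0.37 with Cldn13. Single genes of the 21 ranged from −0.13 (Klf1) to 0.42 (Hemgn) with Cldn13. Cldn13 gave 0.39 with a sum of 10 mitotic genes and −0.23 with a sum of 9 progenitor genes, and −0.11 with the total counts of the cell before thinning.

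**Figure D3:**
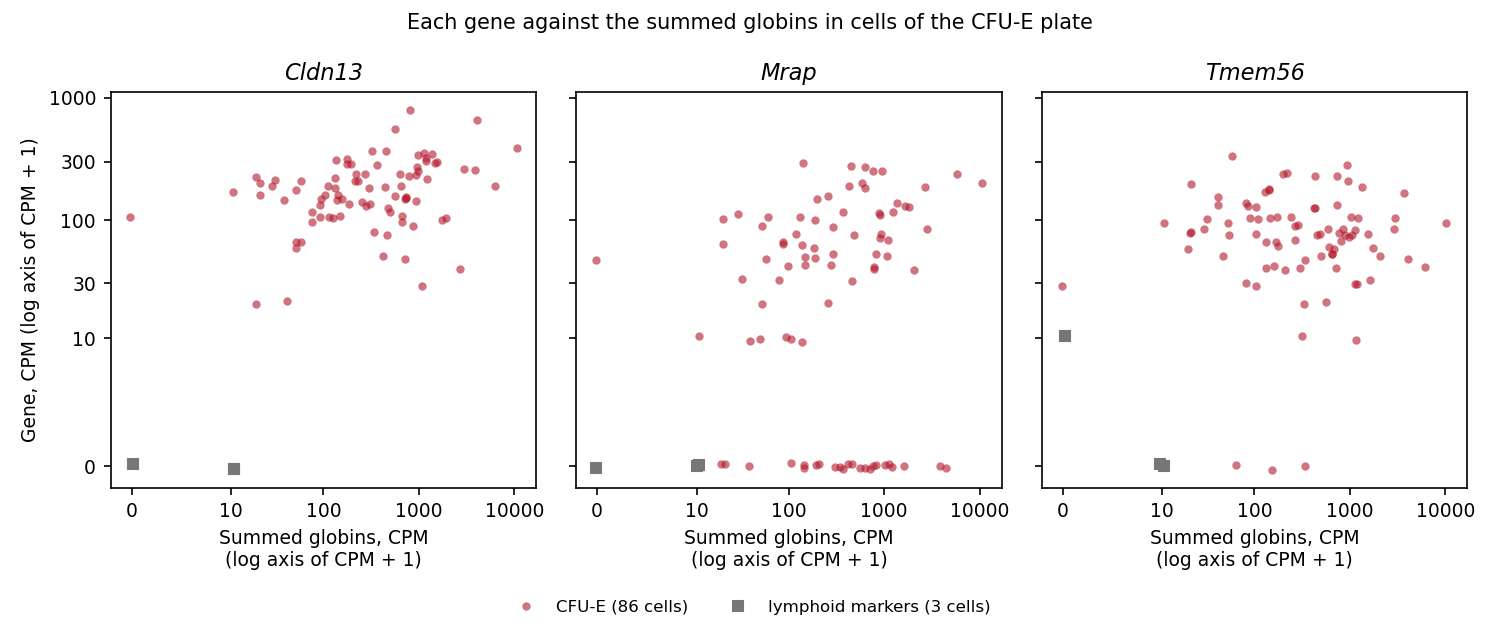
Level of each gene (vertical axis) against the summed globins (horizontal axis), both in CPM on log axes of CPM + 1, in 86 CFU-E cells (circles) and 3 CFU-E wells with lymphoid markers (squares); points are moved slightly at random so that they do not hide each other. Cldn13 and the summed globins are only weakly related (rho 0.32), and cells without Mrap are spread over globin levels of 20 to 4230 CPM.

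The 62 erythroid CFU-E cells with Mrap and the 24 without had similar sums of stage and cell cycle genes. The late erythroid panel summed to 12934 CPM in cells with Mrap and 13598 CPM in cells without. Of these sums Car2 alone made up 6306 and 6893 CPM. Summed globins were 775 and 788 CPM in cells with and without Mrap, with medians of 270 and 430 CPM. Summed mitotic genes were 2486 and 2382 CPM, and summed S phase genes 10513 and 11146 CPM, in cells with and without Mrap.

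The 12 BFU-E cells with onset can be described against the 41 erythroid-like BFU-E cells with none of the 3 transcripts. Cldn13 was at 10, 20, 30, 50, 50 and 80 CPM in its 6 cells, Mrap at 10, 20 and 40 CPM in its 3 cells and Tmem56 at 10, 10, 10, 20 and 30 CPM in its 5 cells. The 2 cells that held both Cldn13 and Tmem56 had 50 CPM of Cldn13 each, with 10 and 30 CPM of Tmem56. The late erythroid panel summed to a median of 3060 CPM in the 12 cells (range 1250 to 4030) and 2060 CPM in the 41 (750 to 4010), so the ranges overlapped almost wholly. Over the 53 cells its largest parts were Car2 (588 CPM), Gata1 (343 CPM), Tfrc (328 CPM) and Ermap (298 CPM). These genes were already common in BFU-E cells, so the sum does not measure late genes alone. Klf1, a transcription factor of erythroid genes, was at 270 CPM in the 12 cells and 151 CPM in the 41, and Epor, the erythropoietin receptor, at 177 and 116 CPM in the 12 and the 41. Rhd, of the Rh blood group complex, was at 90.8 CPM in the 12 cells and 14.6 CPM in the 41, and Rhag, its partner in that complex, had a count in 9 of 12 and 12 of 41. Gata1, the master regulator of the lineage, was alike at 338 CPM in the 12 and 344 CPM in the 41.

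The progenitor list, with Cd34, Kit and Myb among its genes, summed to 2225 CPM in the 12 cells and 2838 CPM in the 41. Globins had a count in 4 of the 12 (33.3%, interval 9.92 to 65.1) and 9 of the 41 (21.95%, 10.6 to 37.6), at 4.17 CPM (1.35 to 9.72) and 10.98 CPM (8.01 to 14.7). The value of the 41 rests on the 1 cell at 360 CPM, and without that cell it was 2.25 CPM (1.03 to 4.27), so no order of globin levels is read between the 12 and the 41. Slc4a1, the anion exchanger of the red cell membrane, had no count in the 12 cells and was at 1.22 CPM in the 41. Median totals before thinning were 1296560 counts in the 12 cells and 1047540 in the 41, and the part of this in the result was not tested beyond the thinning.

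**Figure D4:**
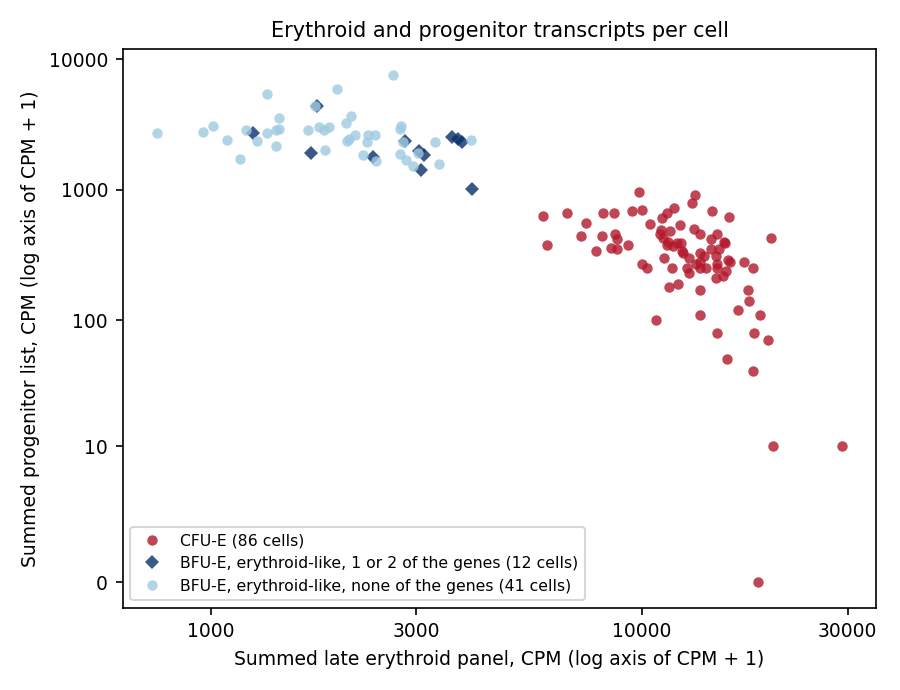
Summed progenitor genes (vertical axis, CPM) against the summed late erythroid panel (horizontal axis, CPM), both on log axes of CPM + 1, in 86 CFU-E cells, 12 erythroid-like BFU-E cells with 1 or 2 of the 3 transcripts and 41 with none. The 12 cells lie among the 41, with panel medians of 3060 and 2060 CPM, and no BFU-E cell reaches the panel sums of the CFU-E cells.

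Set against 21 genes of the late erythroid panel, the 3 transcripts were among those least often seen in erythroid-like BFU-E cells. The 3 genes were picked for a large difference between the cell types, which favours a low BFU-E share. The panel, too, was chosen with earlier results of these data known, so this place is a description only. In these 53 cells, 16 of the 21 panel genes had a higher share than Cldn13 (11.3%) and Tmem56 (9.43%), and 17 had a higher share than Mrap (5.66%). The panel genes with shares below that of Cldn13 were Slc39a8, a zinc and manganese importer, Epb42 of the membrane skeleton, Slc26a1, a sulfate transporter, Slc4a1 and Trim10, a tripartite-motif protein. Their levels in the 86 CFU-E cells over the 53 erythroid-like BFU-E cells gave ratios of 95.9 for Slc39a8, 77.2 for Slc4a1, 49.6 for Slc26a1 and 45.6 for Epb42. Trim10 had no count in erythroid-like BFU-E cells. Its CFU-E level was 143-fold a floor of 3 counts over the 53 cells, and the exact interval of its ratio starts at 116. By point value, the ratios of Mrap (52.3) and Tmem56 (61.7) lay within the range of these panel genes, and that of Cldn13 (43.5) just below it. The interval of Cldn13 (29.2 to 68.1) overlapped those of Slc39a8 (54.8 to 186), Slc4a1 (32.9 to 238), Slc26a1 (28.3 to 96.3) and Epb42 (28.7 to 77.1). No order among them is read.

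Genes of the erythroid program that were already common in BFU-E cells had much smaller ratios. Since the BFU-E level divides the ratio, this follows in part from how they were picked. Gata1 was seen in 53 of 53 erythroid-like BFU-E cells and had a ratio of 1.32, and Klf1, seen in 50, had a ratio of 2.58. Car2, the carbonic anhydrase of red cells, was seen in 52 and had a ratio of 10.998. Over the whole plates, 20 of the 21 panel genes were higher in CFU-E cells by 2-fold or more, with a median log2 fold of 3.55 against −0.57 for all measured genes. Between the 86 CFU-E and 53 erythroid-like BFU-E cells it was 18 of the 21, with a median of 2.92 against −0.54. Gata1 and Ermap (1.504), which carries a blood group antigen, were within 2-fold there, and Trim58, a ubiquitin ligase that acts late in erythroblasts, had a ratio of 0.485.

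**Figure D5:**
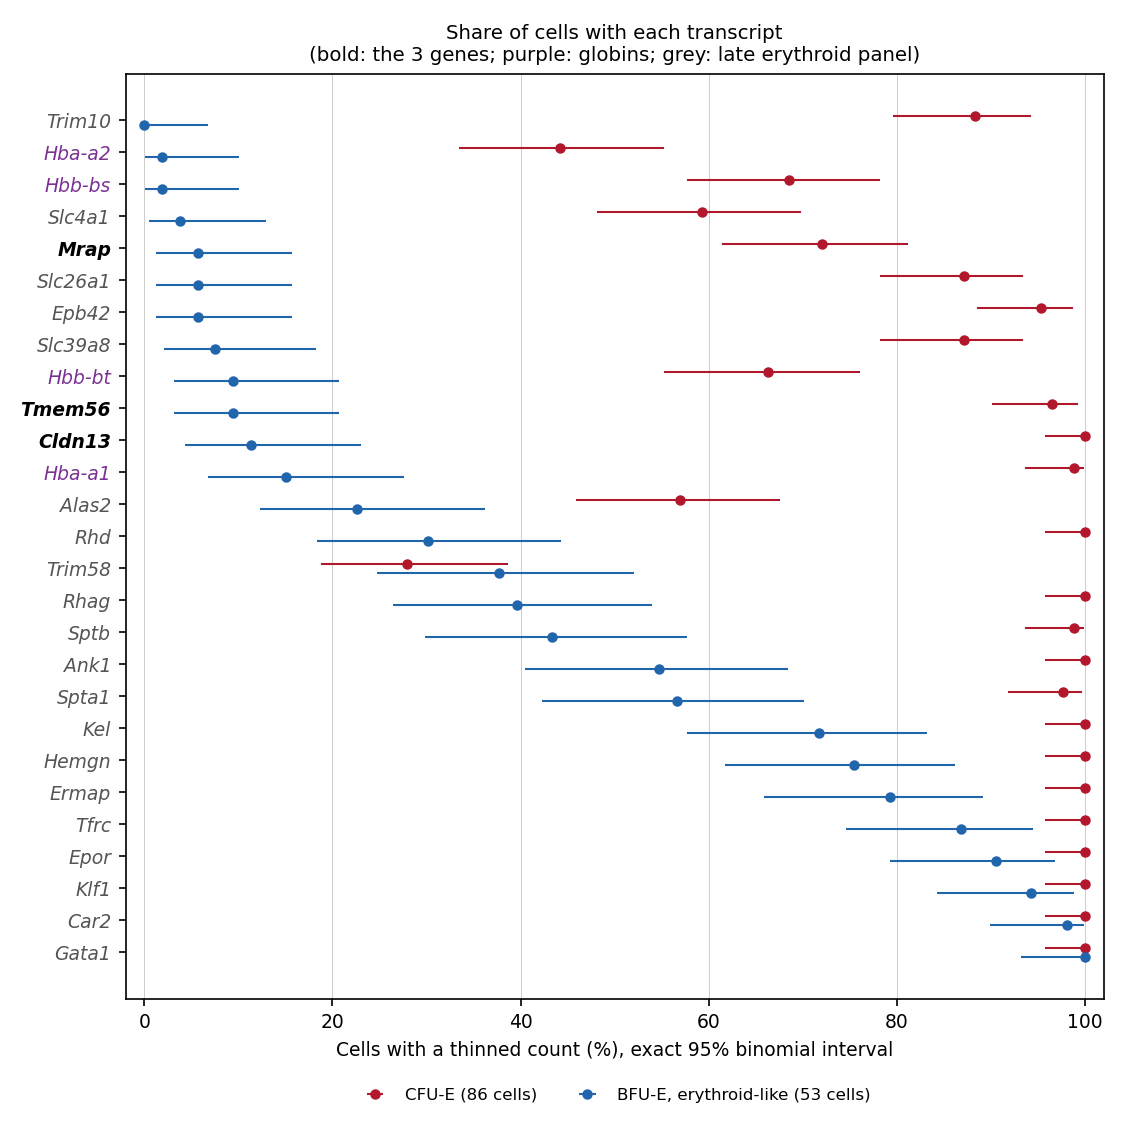
Share of cells with at least 1 thinned count (horizontal axis, %, with exact 95% intervals of counting error) in 86 CFU-E and 53 erythroid-like BFU-E cells for the 3 genes (bold), the main globins (purple) and 20 genes of the late erythroid panel (grey), ordered by the BFU-E share. Cldn13, Mrap and Tmem56, picked for their difference between the cell types, sit among the genes of lowest BFU-E share. Their BFU-E shares are 11.3%, 5.66% and 9.43%, with CFU-E shares of 100%, 72.1% and 96.5%.

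Few other claudins or tight junction genes reached the 5 CPM minimum in these cells, and none was higher in CFU-E cells by 2-fold or more. Of 22 other claudins, 16 had no thinned count in either cell type, and 1 was measured, Cldn12, which was lower in CFU-E cells at 1.69 CPM, against 21.7 CPM in BFU-E cells. Of 10 tight junction genes, 2 were measured and both were at least 2-fold lower. Of all 9445 measured genes 6.28% were higher and 34% lower by 2-fold, so these few genes show nothing particular to junction genes. Jam3, an adhesion molecule, was at 0.674 CPM in CFU-E and 10.4 CPM in BFU-E cells. The scaffold Tjp1 stood at 5.06 CPM in CFU-E and 3.80 CPM in BFU-E cells, and occludin (Ocln) at 1.80 and 2.39 CPM. Between the 86 CFU-E and 53 erythroid-like BFU-E cells, Cldn12 was at 1.74 and 22.3 CPM, Jam3 at 0.698 and 11.9 CPM and Tjp1 at 5.23 and 6.60 CPM. The genes lower by 2-fold or more over the whole plates were so under TMM and median-of-ratios scaling too.

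Mc2r, the receptor that Mrap serves in adrenal cells, was seen in few cells. It stood at 2.81 CPM (1.82 to 4.15) in CFU-E and 7.28 CPM (5.64 to 9.25) in BFU-E cells, with counts in 9 CFU-E and 11 BFU-E cells, all 11 erythroid-like. The ratio of 0.386 was 0.573 under TMM and 0.597 under median-of-ratios scaling, so over the whole plates it passed 2-fold lower only without scaling. Between the 86 CFU-E and 53 erythroid-like BFU-E cells Mc2r was at 2.91 and 12.6 CPM, a ratio of 0.230 (0.139 to 0.369). Of the 9 CFU-E cells with Mc2r, 7 also had Mrap, where 62 of all 89 CFU-E cells had Mrap. Of the 11 BFU-E cells with Mc2r, 1 had Mrap, where 3 of the 53 erythroid-like cells had Mrap. Mc5r, another melanocortin receptor, was without a count in CFU-E cells and at 16.96 CPM (14.4 to 19.8) in BFU-E cells, seen in 31. That BFU-E level was 50.3-fold a floor of 3 counts over the 89 CFU-E cells, which is not an exact bound. In erythroid-like BFU-E cells Mc5r was at 19.4 CPM. Mrap2, the close relative of Mrap, and 3 other genes of the 8 in the list had no count in either cell type.

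Among 15 relatives of Tmem56 with a TLC domain, 9 were measured, of which 1 was at least 2-fold higher and 4 were at least 2-fold lower in CFU-E cells. Over all 9445 measured genes 6.28% were higher and 34% lower by 2-fold, so with 9 genes nothing is read about the family from these counts. Tlcd1, a regulator of membrane phospholipids, was the higher one at 54.5 CPM in CFU-E and 18.6 CPM in BFU-E cells, 2.93-fold (2.46 to 3.51). The lower ones were the ceramide synthases Cers4, at 3.37 CPM in CFU-E and 39.2 CPM in BFU-E cells, Cers5, at 27.3 and 70.7 CPM, and Cers6, at 2.02 and 37.1 CPM, and Tram2, a translocation protein of the endoplasmic reticulum, at 0.112 and 13.3 CPM. Cers2, a ceramide synthase for very long chains, was at 443 CPM in CFU-E and 293 CPM in BFU-E cells, or 120.6 and 79.7 CPM per kilobase, above the 11.4 CPM per kilobase of Tmem56 in CFU-E cells. Under TMM and median-of-ratios scaling Cers2 was 2.25-fold and 2.34-fold higher and Cers5 no longer 2-fold lower, giving 2 higher and 3 lower of the 9. Between the 86 CFU-E and 53 erythroid-like BFU-E cells it was again 1 higher and 4 lower of 9, with Tlcd1 at 56.2 and 24.5 CPM, Cers5 at 22.1 and 54.9 CPM and Cers2 at 449 and 307 CPM.

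Likeness to each gene was ranked by Spearman's rho over the 89 CFU-E cells among 5363 genes seen in at least 50% of them. The genes most like Cldn13 were Sox6 (rho 0.55), Hemgn (0.48), Ctsb (0.46), Car2 (0.43) and Prdx2 (0.42), where 2.5% of all ranked genes exceeded 0.26. Sox6 and Hemgn are nuclear factors of erythroid cells, Ctsb a lysosomal protease and Prdx2 an abundant antioxidant enzyme of red cells. Without the 3 lymphoid-marker wells the 5 values were 0.52, 0.42, 0.41, 0.37 and 0.36. For Mrap the first genes were Jmy (0.45), Mrpl35 (0.39), Ormdl3 (0.38), Carhsp1 (0.38) and Golga4 (0.37), where 2.5% of ranked genes exceeded 0.23. For Tmem56 they were Rexo1 (0.42), Zcchc6 (0.41), Ikbkb (0.41), Smim10l1 (0.41) and Ppp2r5d (0.39), where 2.5% exceeded 0.24. Without the lymphoid-marker wells these values ran from 0.34 to 0.42 for Mrap and from 0.38 to 0.45 for Tmem56. All lists are the highest of 5363 values, and how high unrelated genes would reach was not tested. None of the lists held another of the 3 genes or a globin.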

How the data were processed

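Single cells were sequenced by the SmartSeq2 method, which reads whole transcripts and marks neither strand nor molecule. The authors deposited raw read counts per gene, as whole numbers without any scaling. STAR 2.4, featureCounts without a version and the build GRCm38 appear in the submitters' processing notes. Which annotation they used, and how they treated strand and reads with several matches, is not given in the sources used here. Of the per-sample columns, 191 were matched by name and 1 was not used. The plates share 95 index pairs.

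Kept cells (at least 100000 counts and 2000 genes) were thinned without replacement (seed 1) and summed per cell type to 8900000 counts for CFU-E and 9200000 for BFU-E. Ratios carry exact conditional binomial intervals, levels exact Poisson and shares Clopper-Pearson intervals. Log2 folds used a pseudocount of 1 CPM. A gene with 3 or fewer counts in each cell type counts as at the floor and has no ratio. Ward clustering used 10 principal components of 1000 variable genes, and a mean silhouette under 0.2 was read as no separated clusters (0.330 in BFU-E, 0.155 in CFU-E cells). Wells with at least 3 lymphoid markers were set apart. No doublet caller was run, since wells received single sorted cells.

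Named genes were the 3 genes, members of fixed family, partner, globin and stage lists, the nearest protein-coding genes, and the 5 genes most alike in rank correlation. The members and lists were chosen with earlier results of these data known. Positions and exonic lengths came from GENCODE M21, which holds 49326 of the 49466 genes, and the promoter from RefSeq. Python 3.11.15, numpy 2.4.6, scipy 1.17.1, scikit-learn 1.9.0, R 4.3.3 and edgeR 4.0.16 (TMM factors only) were used. The steps were tested on simulated data. Alternatives covered the cell filters, thinning, onset threshold, scaling, pseudocount, expression minimum and the cells set apart. Ahsp, Asip, Cldn21 and Cldn25 were not analysed here, and some genes counted in the lists are not reported here by name.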

Additional observations from a re-analysis of the deposited data

How the results depend on the processing

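No log2 fold of the 3 genes changed direction under the alternatives tried. Spearman's rho between Cldn13 and Mrap turned from 0.06 to −0.00 without the lymphoid-marker wells. The log2 folds of Cldn13, Mrap and Tmem56 ran from 4.87 to 6.26 over 36 values. Without the granulocyte-monocyte-like cells the Cldn13 log2 fold was 5.11, against 5.73 with them. Without the lymphoid-marker wells the Cldn13 share of CFU-E cells was 100%, and with no thinning the Mrap share was 80.9%. With onset set at 3 counts the Tmem56 share of BFU-E cells was 1.09%. With thinning to 300000 counts and with no thinning, 100% of onset CFU-E cells held Hba-a1 for each of the 3 genes. With no thinning all 89 CFU-E cells had a Hba-a1 count, so that 100% was fixed for any gene and shows no co-expression. With 3 counts required of both, 92.9% did for Cldn13 and 91.1% for Tmem56. The number of genes at least 2-fold higher was 593, and it was 1433 with TMM and 1547 with median-of-ratios factors. With no expression minimum beyond the floor of 3 counts it was 1665.

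No paired analysis was possible because the label numbers of single cells name wells and pair nothing, and no result comes from a test. Differences between embryos, plates or lanes have no estimate, and a BFU-E level of 7 or 8 counts fixes a ratio only within a wide interval.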

Other observations

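The nearest protein-coding genes on either side of the 3 genes that were above the floor of 3 counts in a cell type had ratios of CFU-E over BFU-E level of 1.33 or less over the whole plates, and of 1.45 or less between the 86 CFU-E and 53 erythroid-like BFU-E cells. Next to Cldn13, Tmem270, Eln (166926 bases away) and the claudin gene Cldn4 had no count in either cell type. Mettl27 stood at 6.07 CPM in CFU-E and 4.57 CPM in BFU-E cells. Next to Mrap, Urb1, which lies 1742 bases away and acts in ribosome assembly, was at 51.6 CPM in CFU-E and 57.3 CPM in BFU-E cells. Mis18a, a centromere protein gene, was at 39.2 and 51.96 CPM in CFU-E and BFU-E cells. Next to Tmem56, Alg14, of protein glycosylation, was at 23.5 CPM in CFU-E and 18.8 CPM in BFU-E cells, and Rwdd3 at 0.337 and 5.76 CPM. Farther off, the actin-binding calponin Cnn3, 143399 bases away, was at 267 CPM in CFU-E and 227 CPM in BFU-E cells. The splicing regulator Ptbp2, 1417295 bases away, was at 13.9 and 62.2 CPM.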
